A study of Mus musculus with 4 samples.

Results

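The nuclear-encoded subunits of the respiratory chain were followed in differentiating mouse embryonic stem cells. They were taken as every probe whose RefSeq accession led to a symbol beginning with Ndufa, Ndufb, Ndufc, Ndufs, Ndufv, Uqcr, Cox4, Cox5, Cox6, Cox7, Cox8 or Atp5, or to Sdha, Sdhb, Sdhc, Sdhd or Cyc1. Assembly factors of the Ndufaf series and pseudogenes were left out. The rule gave 104 of 41174 probes, which stand for 84 of 32970 genes or transcripts. Of these genes 35 belong to complex I, 4 to complex II, 9 to complex III, 19 to complex IV and 17 to complex V. Ndufa4 was counted in complex IV, where its protein is placed today. Of 89 protein-coding RefSeq genes whose symbol fits the rule, 84 were matched to a probe, and Ndufa11, Ndufa4l2, Ndufb1, Ndufb4b and Ndufb4c were not.

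The respiratory chain of the inner mitochondrial membrane passes electrons from NADH through complex I, or from succinate through complex II, by ubiquinone to complex III and by cytochrome c to complex IV, which reduces oxygen. Complexes I, III and IV pump protons, and complex V, the ATP synthase, uses the gradient to make ATP. A few core subunits of complexes I, III, IV and V are encoded by mitochondrial DNA, and all others are nuclear genes. Several small subunits of complex IV and the ring subunit c of complex V come as families of isoform genes, some of which are known for expression in muscle or testis.

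RNA of D3 cells, an established mouse embryonic stem cell line, was compared on 4 arrays read in Cy3 and Cy5. Each array held RNA of cells transfected with siRNA against Pnpla6, called silenced cells, beside RNA of control cells. All cells were seeded as embryoid bodies and kept without LIF, the cytokine that holds mouse stem cells undifferentiated, and RNA was taken at 24 h or at 96 h, with 2 arrays at each time and the dyes exchanged between them. Pnpla6 is the gene of neuropathy target esterase, an enzyme that breaks down phosphatidylcholine. What was given to the control cells is not in the labels. They also leave unsaid if the arrays within a time used RNA from separate cultures. The p-values may therefore cover technical variation only. Those for silencing rest mostly on a variance pooled over all probes, more than on the 2 arrays of a time. Replicate differences that both times share went into a term for the dye orientation. Cox6a1, for example, had log2 ratios of -0.63 and 0.69 at 24 h and an SE of 0.064. In bulk RNA a change in the number of cells of a kind cannot be told apart from a change in RNA per cell.

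Between 62.5% and 68.7% of the spots of a channel lay well above background, and none was saturated. Pnpla6 was lower in silenced cells on both 24 h arrays, with log2 ratios of -0.73 and -1.002, which left 54.9% of the control level (limma adjusted p = 3.49e-13). Pnpla6 did not pass with no replicate block or with the authors' log ratios, where 0 of 28088 probes passed at 24 h. At 96 h its ratios were 0.12 and -0.11, with a mean of 0.01 (limma adjusted p = 0.962), so a lower level of the targeted transcript was measured at 24 h and not at 96 h. All 9 pluripotency markers on a list of 9 were above background in all 8 channels.

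Most of the subunit genes were plainly measured. In all 8 channels 80 of the 84 genes were well above background, and 82 passed the filter, which asked for both channels of at least 1 RNA group above background. The exceptions were all isoforms of complex IV. Cox8b, the muscle isoform of subunit 8, was above background in no channel, and Cox8c, its testis isoform, in 1 control and 1 silenced channel at 24 h; neither was tested. Cox4i2, the hypoxia-linked isoform of subunit 4, was above background only at 96 h, on 1 control and 2 silenced arrays. Cox7b2, a testis isoform of subunit 7b, was above background on all arrays at 24 h and on 1 control array at 96 h. A gene with several probes is given by its brightest probe, and levels of different probes were not set against each other.

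Between the 2 times single subunits changed in both directions. From 24 h to 96 h 20 of 82 genes passed in control cells (limma on single channels, adjusted p under 0.05), of which 11 were higher and 9 lower. The lower ones include Cox7b2 in both kinds of cells, which passed the filter only through its 24 h channels. The calls in control cells make up 24.4%, where 36.8% of all genes tested passed, 19.5% as higher and 17.3% as lower. In silenced cells 23 genes passed, 11 higher and 12 lower, which is 28.0% against 37.8% of all genes, 19.7% as higher and 18.1% as lower. The median change over the 82 genes was -0.02 on the log2 scale in control cells and -0.06 in silenced cells, against -0.01 and -0.01 over all genes tested. Of the genes that passed, 15 did so in both kinds of cells, all in the same direction, 5 only in control and 8 only in silenced cells. Whether the change differed between the kinds of cells was tested by the contrast between the silencing effects at 96 h and 24 h, and none of the 82 genes passed it.

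The split into higher and lower depended on how the channels were scaled. With the scanner's processed signals, set to the 75th percentile of each channel, 3 genes were higher and 18 lower in control cells, and 4 were higher and 27 lower in silenced cells. The median of the 82 genes was then -0.25 and -0.26. The brightest 10% of all tested probes moved alike, from a median of -0.02 to -0.23 in control cells and from -0.04 to -0.25 in silenced cells, while the median of all probes stayed at -0.04 and -0.03. Quantile normalization gave 10 higher and 11 lower in control cells. All 20 and all 23 genes kept their sign in each of the 11 alternatives, and the genes that passed in all of them were 7 in control cells and 12 in silenced cells. In control cells these were Cox6b2, Cox7a1 and Ndufa7, which rose, Atp5g1, Ndufb5 and Uqcrq, which fell, and Cox7b2. Both numbers count Cox7b2, whose fall was favoured by the filter, so its call is read as no result. With the slide as a block 25 and 24 genes passed, and within the slide that held both 24 h arrays and 1 array of 96 h the numbers were 27 and 24.

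**Figure D1:**
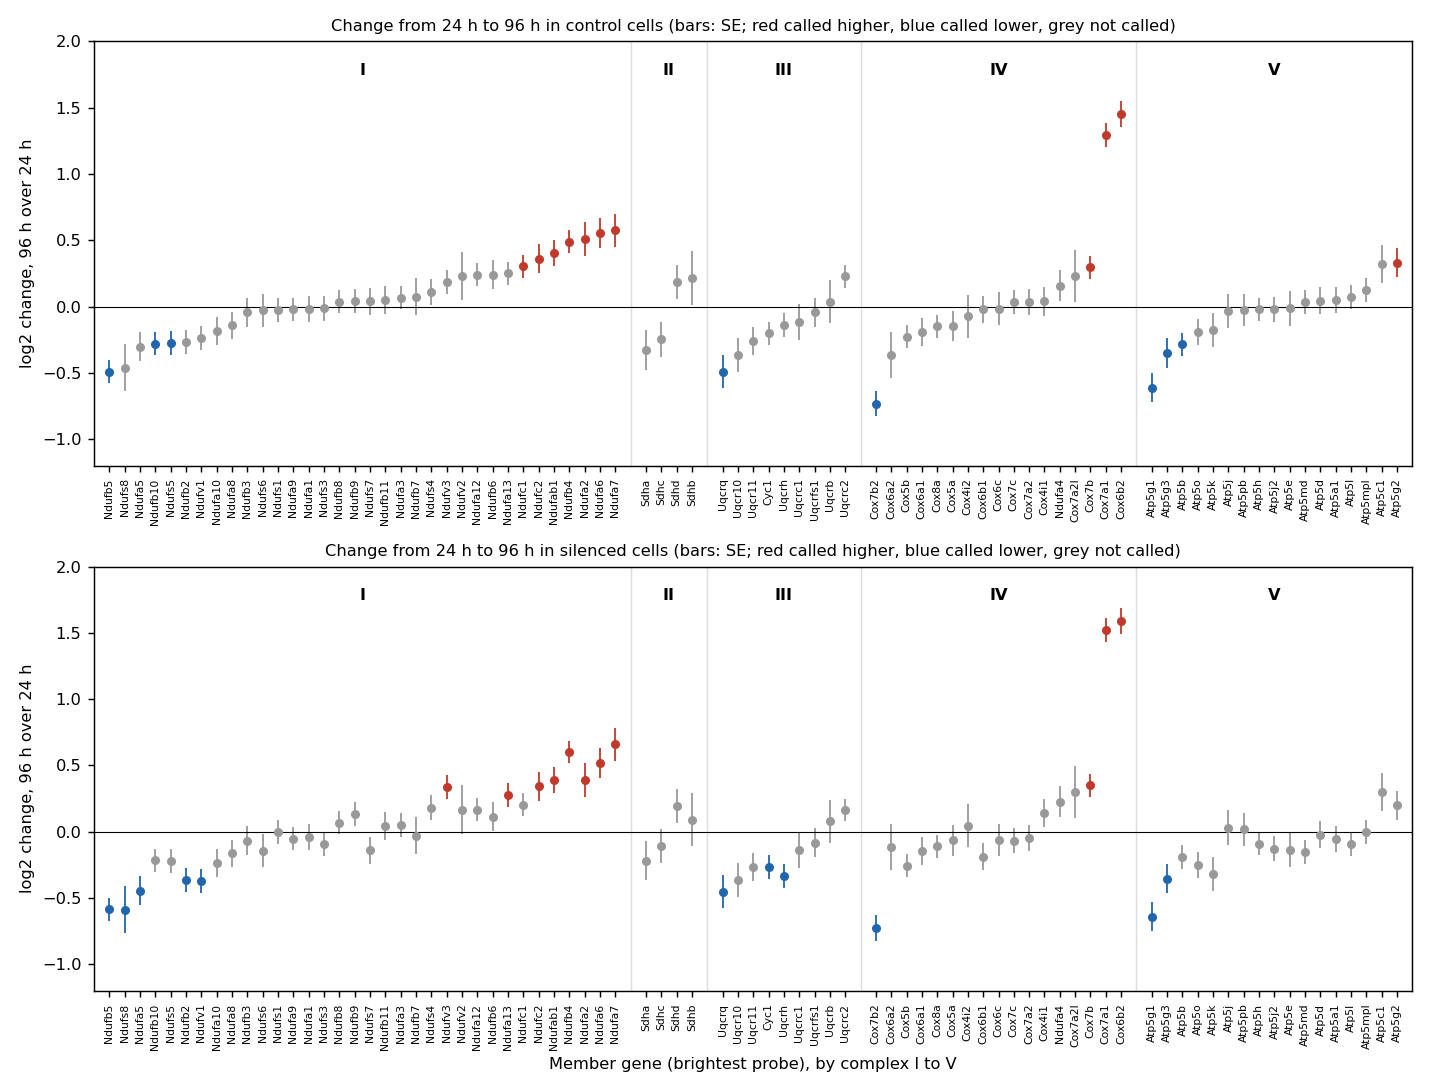
Change from 24 h to 96 h of 81 of the 82 tested subunit genes, as log2 difference with its SE, in control cells (upper panel) and silenced cells (lower panel), ordered by complex and by the change in control cells. Red points passed as higher and blue points as lower at an adjusted p under 0.05; Cox6b2 and Cox7a1 stand above all other genes at 1.45 and 1.29 in control cells.

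**Figure D2:**
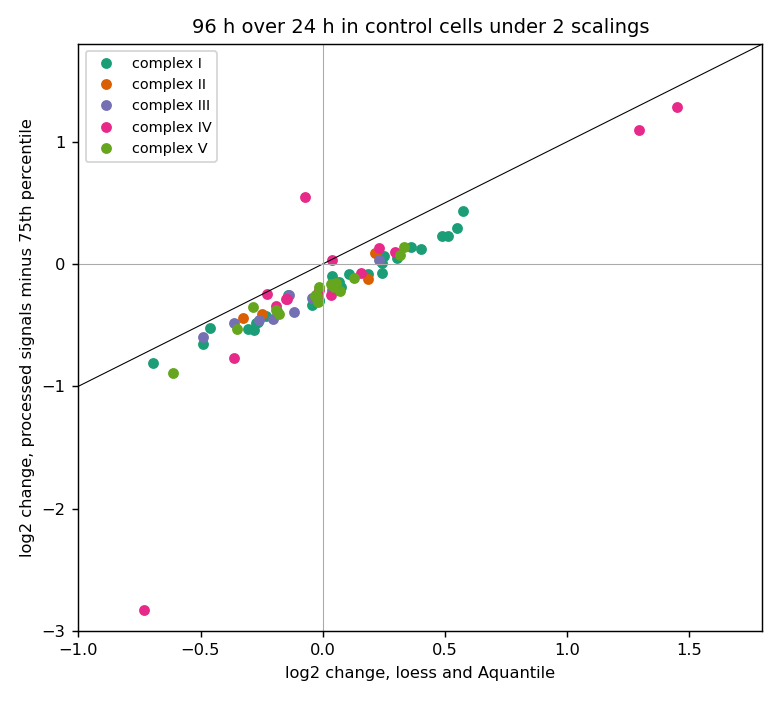
The log2 change from 24 h to 96 h of the 82 genes in control cells after loess and Aquantile normalization (x axis) and with processed signals set to the 75th percentile (y axis), coloured by complex; the black line marks equal values. Nearly all points lie below the line, and the lowest, Cox7b2, lies at -0.73 and -2.83.

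Complex IV, cytochrome c oxidase, held the largest changes of the chain, and they were in isoform genes. Of its 17 tested genes 3 rose and 1, Cox7b2, was called lower in both kinds of cells. That is 23.5%, against 36.8% of all genes in control cells and 37.8% in silenced cells. With the 75th percentile scaling 2 of the 17 rose and 2 were called lower in control cells. The sequences before the start sites of the isoform pairs that parted are shown first, so that the genes can be compared. They are the 250 bases upstream of the start in RefSeq (GRCm38.p6), written 5′ to 3′ on the strand of the gene, at chr7:4753095-4753344 for Cox6b2, chr7:30626115-30626364 for Cox6b1, chr7:30183921-30184170 for Cox7a1 and chr9:79759854-79760103 for Cox7a2. Cox7a1 lies on the plus strand and the others on the minus strand. Capitals mark a match to the ETS motif on either strand, the only match among the 4 motifs searched in these windows.
Cox6b2: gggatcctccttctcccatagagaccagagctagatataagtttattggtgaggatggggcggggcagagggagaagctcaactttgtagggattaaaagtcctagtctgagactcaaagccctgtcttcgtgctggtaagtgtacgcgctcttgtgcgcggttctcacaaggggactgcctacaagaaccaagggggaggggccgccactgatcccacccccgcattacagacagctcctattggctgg
Cox6b1: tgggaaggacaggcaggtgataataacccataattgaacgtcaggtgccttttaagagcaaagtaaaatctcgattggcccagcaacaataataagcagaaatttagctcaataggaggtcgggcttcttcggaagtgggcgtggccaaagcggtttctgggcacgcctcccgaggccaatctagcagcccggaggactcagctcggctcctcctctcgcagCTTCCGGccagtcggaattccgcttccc
Cox7a1: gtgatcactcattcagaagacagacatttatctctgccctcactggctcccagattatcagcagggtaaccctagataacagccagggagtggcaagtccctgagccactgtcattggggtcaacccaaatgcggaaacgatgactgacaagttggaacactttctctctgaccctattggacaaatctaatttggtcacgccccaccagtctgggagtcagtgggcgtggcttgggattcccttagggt
Cox7a2: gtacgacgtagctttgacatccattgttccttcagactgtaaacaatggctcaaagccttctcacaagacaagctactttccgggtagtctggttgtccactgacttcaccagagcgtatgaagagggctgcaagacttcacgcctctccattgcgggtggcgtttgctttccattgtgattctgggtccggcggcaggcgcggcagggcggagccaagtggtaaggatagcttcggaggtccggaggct

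Cox6b2, the testis isoform of subunit 6b, rose most. Its normalized log2 intensity at 24 h was 11.52 and 11.38 in control cells and 11.53 and 11.37 in silenced cells. At 96 h it was 12.96 and 12.84 in control cells and 13.11 and 12.98 in silenced cells. Every 96 h channel lay above every 24 h channel, and the rise was 2.73-fold in control cells (log2 1.45, SE 0.10, limma adjusted p = 4.47e-05) and 3.01-fold in silenced cells (log2 1.59). Cox6b1, the widely expressed isoform, was at 12.23 and 12.45 in control cells at 24 h and at 12.24 and 12.40 at 96 h. Its groups overlapped, and its change was -0.02 in control and -0.19 in silenced cells, neither of which passed.

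Cox7a1, the heart and skeletal muscle isoform of subunit 7a, rose 2.45-fold in control cells and 2.87-fold in silenced cells. Its log2 intensity went from 12.04 and 12.21 to 13.32 and 13.52 in control cells (change 1.29, SE 0.09, limma adjusted p = 5.12e-05). In silenced cells it went from 12.24 and 12.03 to 13.78 and 13.53 (change 1.52, limma adjusted p = 3.04e-05). The 2 times did not overlap in either kind of cells. Cox7a2, the isoform of most other tissues, stood between 14.51 and 14.72 in all 8 channels, with a change of 0.04 in control and -0.05 in silenced cells. Cox7a2l, which joins complexes III and IV into supercomplexes, changed by 0.23 and 0.30 with an SE of 0.20 and did not pass.

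Subunit 7b has a testis isoform and a common one. Cox7b2, the testis isoform, was dim, at 6.84 and 6.86 in control cells at 24 h and 6.18 and 6.06 at 96 h. It entered the test only through its 24 h channels, so a fall was favoured by the filter and its call is read as no result. In control cells, where 1 of 2 arrays was above background at 96 h, the measured change was -0.73 and with the 75th percentile scaling -2.83. In silenced cells, where Cox7b2 was not well above background at 96 h, the measured means were 6.76 at 24 h and 6.03 at 96 h. Cox7b rose from 14.99 and 14.79 to 15.30 and 15.06 in control cells, by 0.30 (SE 0.09, limma adjusted p = 0.0358), and by 0.35 in silenced cells. The rise of Cox7b in control cells went down to 0.10 and lost its call with the 75th percentile scaling.

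The other isoforms and subunits of complex IV did not pass in either kind of cells. Cox4i1 changed by 0.04 in control cells and 0.14 in silenced cells, Cox6a1 by -0.19 and -0.14, and Cox8a by -0.15 and -0.11. Ndufa4, once assigned to complex I, changed by 0.16 and 0.23. Cox6a2, the muscle partner of Cox6a1, was near background at 6.91 and 6.75 in control cells at 24 h and 6.40 and 6.53 at 96 h, and its change of -0.36 had an SE of 0.17. The dye set more of the spread than the group for some bright probes: Cox6a1 read 17.46 and 17.62 in the Cy5 channels at 24 h and 16.93 and 16.83 in the Cy3 channels.

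**Figure D3:**
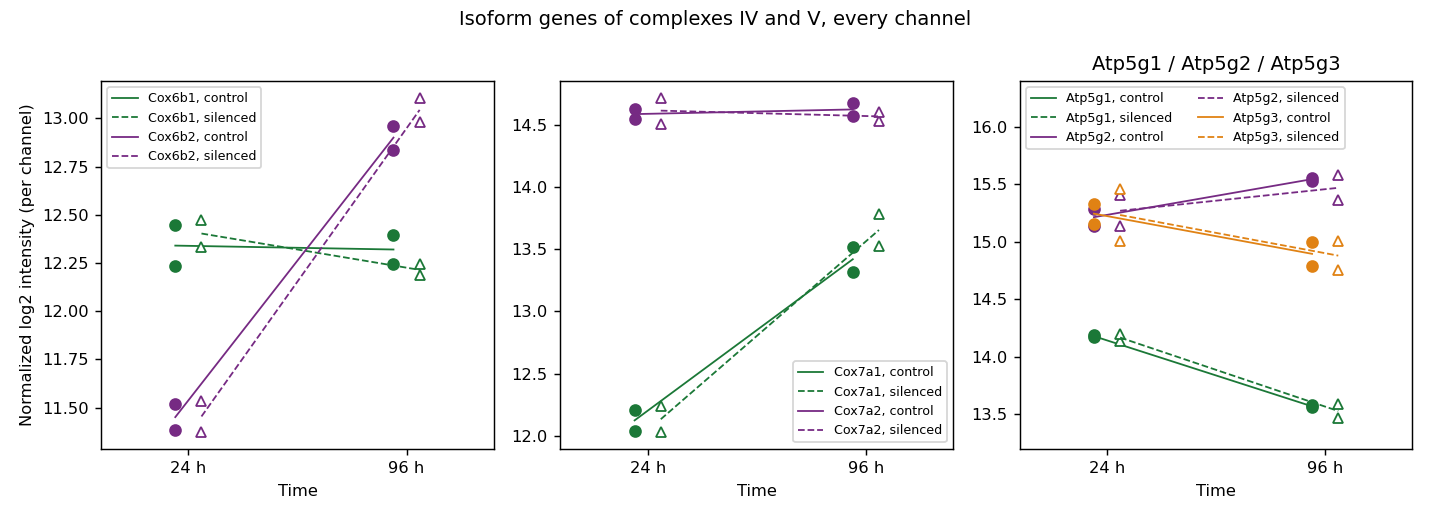
Normalized log2 intensity of isoform genes at 24 h and 96 h, each point 1 channel, filled circles for control cells and open triangles for silenced cells, with lines through the means of 2 channels. The 96 h points of Cox6b2 and Cox7a1 lie above all their 24 h points, those of Atp5g1 below; heights of different genes are not comparable, since each has its own probe.

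In complex V, the ATP synthase, the 3 genes of subunit c parted. Atp5g1, Atp5g2 and Atp5g3 differ in their targeting sequence and encode the same mature protein, the subunit of the rotating membrane ring. Their upstream windows, again from RefSeq (GRCm38.p6), lie on minus strands at chr11:96075632-96075881, chr15:102671048-102671297 and chr2:73911327-73911576. They are shown because these genes moved in different directions. Capitals mark an NRF1 motif in Atp5g2 and an ESRR motif in Atp5g3. Atp5g3 also held an NRF1 match after its start, from base 14, which lies outside the bases shown.
Atp5g1: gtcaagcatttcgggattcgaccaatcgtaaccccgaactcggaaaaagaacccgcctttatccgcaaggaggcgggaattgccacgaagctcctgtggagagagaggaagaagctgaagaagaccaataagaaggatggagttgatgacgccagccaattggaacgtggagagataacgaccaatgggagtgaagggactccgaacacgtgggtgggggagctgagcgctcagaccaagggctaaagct
Atp5g2: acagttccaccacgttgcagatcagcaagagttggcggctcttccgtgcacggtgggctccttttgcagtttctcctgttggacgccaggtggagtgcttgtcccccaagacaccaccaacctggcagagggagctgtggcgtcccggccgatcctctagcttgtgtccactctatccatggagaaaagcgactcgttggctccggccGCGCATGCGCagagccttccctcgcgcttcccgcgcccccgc
Atp5g3: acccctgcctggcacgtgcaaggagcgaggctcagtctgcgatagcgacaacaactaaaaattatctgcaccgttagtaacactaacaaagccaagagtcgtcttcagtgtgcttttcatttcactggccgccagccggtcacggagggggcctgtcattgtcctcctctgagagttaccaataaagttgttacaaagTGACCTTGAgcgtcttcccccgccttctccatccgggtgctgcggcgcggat

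Atp5g1 fell from 14.19 and 14.17 to 13.58 and 13.56 in control cells and from 14.13 and 14.20 to 13.59 and 13.47 in silenced cells. No 96 h channel reached a 24 h channel, and the falls were 1.53-fold (log2 -0.61, SE 0.11, limma adjusted p = 0.00439) and 1.56-fold (log2 -0.64). Atp5g3 fell by 0.35 on the log2 scale in both kinds of cells (SE 0.11, limma adjusted p = 0.0395 and 0.0371). Its channels ran from 15.01 to 15.46 at 24 h and from 14.75 to 15.01 at 96 h, with the Cy5 channel the brighter one throughout. Atp5g2 went from 15.14 and 15.29 to 15.53 and 15.56 in control cells, a rise by 0.33 (limma adjusted p = 0.0493) that kept its call in 6 of 11 alternatives. In silenced cells its change was 0.20 and did not pass, while a dimmer second probe passed in both, at 0.47 and 0.35.

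Over all genes tested 36.8% passed in control cells and 37.8% in silenced cells. Of the 17 genes of complex V 1 rose and 3 fell in control cells (23.5%), and 2 fell in silenced cells (11.8%). With the 75th percentile scaling none rose and 4 fell in control cells. Besides the subunit c genes only Atp5b passed, the catalytic beta subunit, with -0.29 in control cells (limma adjusted p = 0.0402) and -0.19 in silenced cells, where it did not pass. Its other 2 probes gave -0.49 and -0.73 in control cells, the second of which passed. Atp5a1, which encodes the alpha subunit, changed by 0.05 and -0.05.

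Complex I, NADH dehydrogenase, had calls in both directions. In control cells 7 of its 35 genes were called higher and 4 lower, which is 31.4% against 36.8% of all genes. In silenced cells 8 were higher and 6 lower, which is 40% against 37.8%. Both counts of higher genes include Ndufab1 by its brighter probe, while its other probe fell. With the 75th percentile scaling 1 rose and 7 fell in control cells, so the balance between the directions is not settled by these arrays. All the genes called higher were accessory subunits, which surround the catalytic core and make up 28 of the 35 genes.

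Among the accessory subunits Ndufa7 rose most, from 15.25 and 15.18 to 15.78 and 15.80 in control cells (log2 0.58, SE 0.12, limma adjusted p = 0.00878). In silenced cells it went from 15.44 and 14.98 to 15.98 and 15.75 (log2 0.66), and a second probe gave 0.73 and 0.79. No 96 h channel of the brightest probe lay below a 24 h channel. Ndufa6 rose by 0.55 and 0.52, Ndufb4 by 0.49 and 0.60, Ndufa2 by 0.51 and 0.39 and Ndufc2 by 0.36 and 0.34 in control and silenced cells. Ndufc1 passed in control cells at 0.31, and Ndufa13 and Ndufv3 passed in silenced cells at 0.28 and 0.34. The 3 probes of Ndufv3 spanned 0.40 on the log2 scale in control cells, where its brightest probe was at 0.18 and did not pass. Ndufa13 is also known as the apoptosis-linked protein GRIM-19, and Ndufb4 and Ndufc2 are small subunits of the membrane arm.

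Ndufb5, a membrane arm subunit, fell from 10.697 and 10.77 to 10.26 and 10.23 in control cells (log2 -0.49, SE 0.09, limma adjusted p = 0.00409) and by 0.59 in silenced cells. Ndufb10 and Ndufs5 passed in control cells at -0.28 and -0.27, and Ndufa5 and Ndufb2 in silenced cells at -0.44 and -0.37. Of the core subunits Ndufs8, which carries iron-sulphur clusters, and Ndufv1, which binds NADH and FMN, passed in silenced cells at -0.59 and -0.37. In control cells they were at -0.46 and -0.23 and did not pass.

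The probes of Ndufab1, the mitochondrial acyl carrier protein that is also a complex I subunit, went apart. The brighter probe rose by 0.40 and 0.39 and the dimmer one fell by 0.65 and 0.89, and all 4 values passed, so no direction can be given for the gene. It was the only one of 16 genes with several probes whose probes passed in opposite directions.

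Complex II, succinate dehydrogenase, which also belongs to the citric acid cycle, had no gene that passed in either kind of cells. Its 4 changes in control cells ran from -0.33 for Sdha, the flavoprotein, to 0.21 for Sdhb, the iron-sulphur subunit. Their SEs were 0.13 to 0.20, and no unadjusted p was under 0.05. With the 75th percentile scaling Sdhc was called lower in control cells, at -0.41. Complex III, cytochrome bc1, had the lowest median of the 5 complexes, -0.14 in control and -0.27 in silenced cells. Of its 9 genes 1 fell in control cells (11.1%) and 3 in silenced cells (33.3%), against 36.8% and 37.8% of all genes. None of the 9 rose under either scaling. Uqcrq, a small subunit next to cytochrome b, fell by 0.49 and 0.45 (limma adjusted p = 0.0173 and 0.0236). Uqcrh, the hinge protein, and Cyc1, cytochrome c1, passed in silenced cells alone at -0.33 and -0.27, and in control cells they were at -0.14 and -0.20. With the 75th percentile scaling Uqcrq, Cyc1, Uqcr10 and Uqcr11 were called lower in control cells, at -0.60, -0.45, -0.48 and -0.46. The median changes of the other complexes in control cells were 0.04 for I, -0.03 for II, -0.01 for IV and -0.02 for V.

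Silencing of Pnpla6 was followed by few calls among the subunit genes. At 24 h, when the targeted transcript was lower, none of the 82 genes passed in limma, where 0.414% of all genes tested did; at an unadjusted p under 0.05 there was 1. None passed in the alternatives that kept both arrays of a time either. With no replicate block and with the authors' log ratios, however, 0 of all 28088 probes passed. With a normexp offset of 16 only 1 did, so those settings could say little about the 82 genes. The log2 ratios of silenced to control cells ran from -0.15 for Cox6a2 to 0.12 for Ndufa6 with a median of 0.00, and all 95% intervals lay between -0.28 and 0.24. These limits hold for the fit with the dye term. On single arrays the ratios ran wider and often in opposite directions, and the widest were those of Cox6a1, at -0.63 and 0.69. When single arrays were left out, 67 of the 82 genes had values on both sides of 0. Cox6a2 had ratios of -0.17 and -0.12 on the 2 arrays (limma adjusted p = 0.573). Cox7a2l had -0.33 and 0.07, and Ndufa6 0.11 and 0.12 (limma adjusted p = 0.665 and 0.729).

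At 96 h 1 of 82 genes passed, where 13.4% of all genes tested did, and 8 had an unadjusted p under 0.05. The gene was Cox7a1, with a mean log2 ratio of 0.23 (95% interval 0.11 to 0.36, limma adjusted p = 0.00795). Its ratios were 0.46 on replicate 1 and 0.01 on replicate 2, so the mean rests on 1 array. The value without replicate 1 was 0.01 and without replicate 2 it was 0.46, neither with a call, and the call was kept in 3 of 10 alternatives. The others lay between -0.18 and 0.15, with a median over all 82 genes of -0.03. Atp5md, a small subunit of the ATP synthase dimer, had ratios of -0.22 and -0.14 and narrowly missed (mean -0.18, limma adjusted p = 0.0537). Ndufv3 had 0.04 and 0.25 (mean 0.15, limma adjusted p = 0.133). The 95% intervals of all 82 genes lay between -0.31 and 0.36 in the fit with the dye term. The ratios of Cox6a1 on the single arrays were -0.64 and 0.80, and 47 of the 82 genes had values on both sides of 0 when single arrays were left out. Of the dimmer probes that of Ndufab1 passed, at -0.27 (limma adjusted p = 0.00252), where the brighter one was at -0.03.

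By complex, the median ratio at 96 h was -0.03 for I, 0.02 for II, -0.05 for III, 0.05 for IV and -0.06 for V, against 0.00 over all genes tested. In complex V 15 of 17 genes had a mean ratio below 0, and in the core of complex I 7 of 7, although none of these passed. Over all genes tested 10802 of 21748 were below 0, and of the mitochondrial ribosome 66 of 77. The median over the 82 genes was 0.02 without replicate 1 of 96 h and -0.06 without replicate 2. The difference between the silencing effects at 96 h and at 24 h passed for none of the 82 genes, where 6.99% of all genes passed, and 4 had an unadjusted p under 0.05. The smallest p-values were those of Cox6a2 (0.25, limma adjusted p = 0.108), Cox7a1 (0.23, limma adjusted p = 0.135) and Uqcrh (-0.19, limma adjusted p = 0.225).

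**Figure D4:**
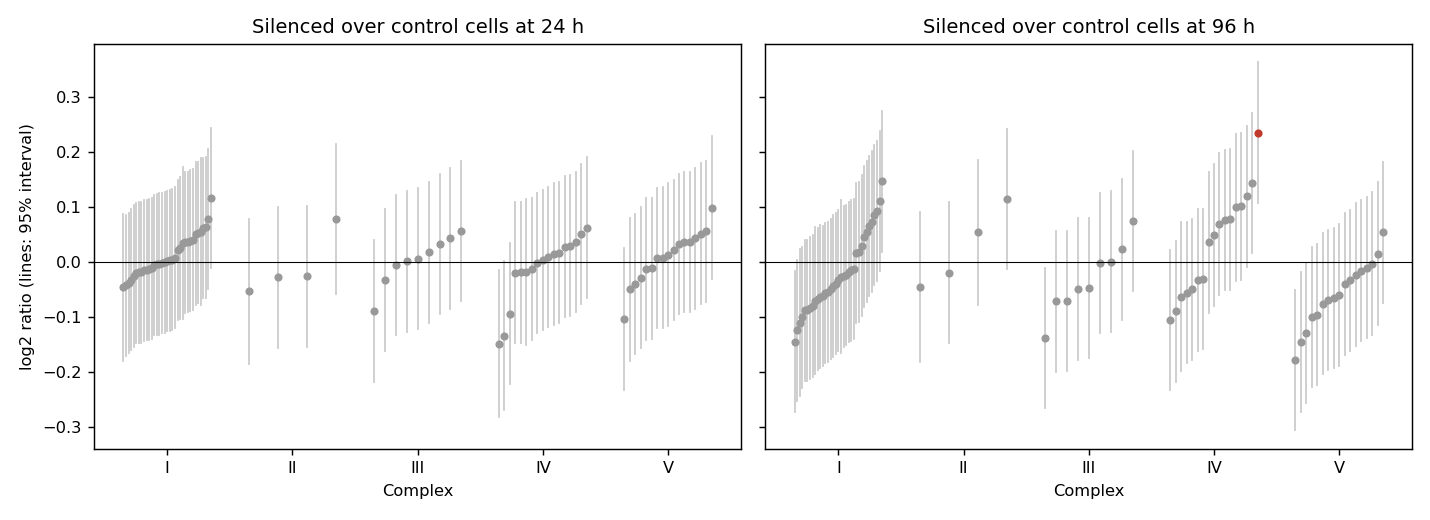
Log2 ratio of silenced to control cells for the 82 tested subunit genes at 24 h (left) and 96 h (right), by complex, with lines for 95% intervals and genes ordered by ratio within a complex. Of all points 1 passed, Cox7a1 in complex IV at 96 h (red, 0.23), and the grey points lie between -0.18 and 0.15.

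Other genes of the pathway were read from lists, whose shares of called genes stand against 36.8% of all genes in control cells and 37.8% in silenced cells. Of 77 tested genes of the mitochondrial ribosome, which makes the subunits encoded by mitochondrial DNA, 3 rose and 35 fell in control cells (49.4%), with a median of -0.26. In silenced cells 3 rose and 38 fell (53.2%). With the 75th percentile scaling 1 rose and 47 fell in control cells. Mrps7 fell by 0.95 and 1.05 and Mrpl23 rose by 0.80 and 0.82 on the log2 scale in control and silenced cells. Of 41 assembly factors, which build the complexes without staying in them, 3 rose and 14 fell in control cells (41.5%) and 3 rose and 16 fell in silenced cells (46.3%). Acad9 and Tmem126b, both needed to assemble complex I, fell by 0.79 and 0.65 in control cells, and Ndufaf3 rose by 0.55.

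Of 16 regulators of mitochondrial biogenesis 1 rose and 7 fell in control cells (50%) and 1 rose and 5 fell in silenced cells (37.5%), the second share being near that of all genes. Nrf1, a transcription factor of many respiratory genes, fell by 0.51 in both. Twnk, the helicase of mitochondrial DNA, fell by 0.90 and 0.87, and Gabpb1, a partner of an ETS factor, rose by 0.30 and 0.39. Among 15 genes of the electron carriers 2 rose and 5 fell in control cells (46.7%), with Cycs, somatic cytochrome c, at -0.57 and -0.61. Among 16 citric acid cycle genes 1 rose and 2 fell in both kinds of cells (18.8%), with Suclg2 at 0.85 and 0.91. Of 22 hypoxia and glycolysis genes 8 rose and 1 fell in control cells (40.9%) and 10 rose in silenced cells (45.5%), with Bnip3, a mitophagy receptor induced by hypoxia, at 1.70 and 1.95. None of the 13 genes encoded by mitochondrial DNA was matched to a probe, and they were not analysed here.

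The same lists were read for silencing. At 24 h none of the 6 lists had a gene that passed. At 96 h 4 of 41 assembly factors passed (9.76%), Timmdc1 at 0.20, Ndufaf4 at -0.24, Taco1 at -0.21 and Cox16 at -0.18. Cyct, testis cytochrome c, and Coq8a, a kinase-like protein of ubiquinone synthesis, passed at 0.42 and 0.29 among 15 electron carriers (13.3%), and Ppargc1b, a coactivator of respiratory genes, at -0.22 as 1 of 16 regulators (6.25%). Of the mitochondrial ribosome 7 of 77 genes were lower (9.09%), and of the hypoxia and glycolysis list 6 of 22 were higher (27.3%). No citric acid cycle gene passed. Over all genes tested 13.4% passed at 96 h.

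Markers of other cell types were read because Cox7a1 and Cox6b2 are known from muscle and testis. Of 8 cardiac and striated muscle markers on the array none passed as higher at 96 h in either kind of cells, and Myl2 fell by 0.43 and 0.37. The summed intensity of the list was 1712 to 1766 in control cells at 24 h and 1462 to 1561 at 96 h, and 1739 to 1748 and 1645 to 1725 in silenced cells. At 96 h Myl7 and Myl2 were higher in silenced than in control cells, by 0.29 and 0.23, and Actc1 was lower by a log2 ratio of -0.22. These were 3 of 7 tested muscle markers (42.9%, against 13.4% of all genes). Of 6 male germ cell markers Odf1 and Spata16 were above background in no channel. Sycp3, a protein of the meiotic chromosome axis, rose by 2.28 and 2.45 and was the only one of 4 tested to pass. That is 25%, against 36.8% of all genes in control cells and 37.8% in silenced cells. The summed intensity of that list was 998 to 1014 in control cells at 24 h and 1594 to 1708 at 96 h, and 947 to 1033 and 1654 to 1799 in silenced cells. The part of such cells in the changes of Cox7a1 and Cox6b2 was not tested.

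The shares of markers called between the times stand against 36.8% of all genes in control cells and 37.8% in silenced cells. Of 6 tested epiblast and primitive streak markers 5 rose in control cells (83.3%) and 2 in silenced cells (33.3%). Of 9 pluripotency markers 2 fell in control cells (22.2%), Zfp42 among them at -0.58. In silenced cells 3 of the 9 fell, Pou5f1 most at -1.41, and Sox2 rose by 0.60, together 44.4%. Between silenced and control cells at 24 h 1 of the 9 passed (11.1%, against 0.414% of all genes), Pou5f1, which was higher in silenced cells at 0.68. At 96 h 6 of the 9 passed (66.7%, against 13.4% of all genes), 5 of them higher in silenced cells and Pou5f1 lower at -1.05. Also at 96 h 3 of 6 epiblast markers (50%) and 3 of 4 fibroblast markers (75%) were lower in silenced cells. Of 6 visceral endoderm markers 2 were higher (33.3%), Cubn most at 1.05. Summed over the epiblast list the intensity was 8149 to 9052 in control cells at 24 h and 15327 to 16221 at 96 h, and 8370 to 8504 and 10549 to 10942 in silenced cells. Of 4 tested fibroblast markers 3 rose in control cells (75%) and 1 in silenced cells (25%), with Col3a1, Lum and Postn above background in no channel. Of 6 tested visceral endoderm markers 3 rose in both kinds of cells (50%). The part of these cells in the changes of the subunit genes was not tested.

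Promoter windows were read for 68 of the 84 genes, as 250 bases before and 50 after the start, and set beside those of 27025 genes. The motifs were searched as exact letters on both strands, and where motifs overlapped each was counted. CGCNTGCGC, the core of the NRF1 motif, was in 19 windows (27.9%, against 7.03% of all genes). CCGGAAG, an ETS motif of the kind bound by GABP, was in 17 (25%, against 9.93%). AAGATGGCG, the core of the YY1 motif, was in 7 (10.3%, against 1.64%), of which 5 were of complex I and 2 of complex V. TCAAGGTCA, the motif of the estrogen-related receptors, was in 2 (2.94%, against 0.466%). Among genes that rose in control cells 3 of 10 windows held the NRF1 motif, and among genes that fell 3 of 7; the ETS motif was in none of these 17. A match describes letters in a window and is not a measured binding site.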

How the data were processed

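RNA of silenced and control D3 cells was compared on 4 Agilent arrays, with 200 ng of total RNA labelled per the labels' protocols; the label protocol puts control RNA in Cy5 on replicate 1 of each time and silenced RNA in Cy5 on replicate 2. The authors extracted the scans with Agilent Feature Extraction (version 10.7.1.1 in the file headers). In the deposited scanner files, spots and their surroundings are given by intensity, as read and as processed by the scanner software. The deposited ratio of the dyes is a log10 value, Cy5 divided by Cy3, and the deposited p-value beside it rests on a single array and was not used. The authors' series table gives silenced over control RNA, also as log10, equal to the scanner log ratio with the sign turned where control RNA was in Cy5, within 4.97e-06.

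The design had named mean signals, which were not among the columns used here, and median spot and background signals took their place. Background was corrected in limma 3.58.1 (R 4.3.3) with normexp and an offset of 50, and ratios were normalized by loess with the 1639 control spots at weight 0. Spots of a probe were averaged, and 28088 of 41174 probes passed the filter on background. RefSeq accessions named 24375 probes through a GRCm38.p6 table. The array design refers to another build, so probes have no coordinates here. The offset compresses the changes of dim probes.

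Silencing effects were fitted over all 4 arrays with 1 mean for each time and a dye orientation term, which is also the replicate number; 1 residual degree of freedom remained and the spread leaned on 44.0 prior degrees of freedom. Changes with time were fitted on single channels (lmscFit after Aquantile) with dye as a covariate and a correlation within spots of 0.894. Tests were two-sided, adjusted by Benjamini-Hochberg over all probes tested and called under 0.05. Statistics were tested on simulated data. With 2 channels against 2, an exact permutation test cannot go below p = 0.333. The number of arrays limits the precision.

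Genes were named by rule: up to 8 with the largest rise and fall among those called, or the 3 with the smallest p; the extremes of each complex; isoform families; up to 3 called genes of each pathway list in each direction; and Pnpla6. Not every gene so selected is printed, and some others are; 1 subunit of complex I is not reported here by name. The members and lists were chosen with earlier results of these data known.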

Additional observations from a re-analysis of the deposited data

Results flagged for a closer look

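The silencing effect of Pnpla6 itself differed between the times by 0.87 on the log2 scale (limma adjusted p = 5.76e-10), from -0.87 at 24 h to 0.01 at 96 h. Outside the subunits, 7 named genes of the pathway lists also differed between 96 h and 24 h by the contrast of the silencing effects. In the hypoxia and glycolysis list Ndrg1 differed by 0.60 (limma adjusted p = 4.05e-06), Ankrd37 by 0.44 and Pfkp by 0.37. The ratios of Ndrg1 were 0.09 and -0.09 on the 24 h arrays and 0.68 and 0.51 on the 96 h arrays. Cyct differed by 0.41, with ratios of 0.14 and 0.71 at 96 h, and Coq8a by 0.29, with 0.46 and 0.13. Timmdc1 differed by 0.28 (limma adjusted p = 0.0468), with ratios of 0.33 and 0.06 at 96 h. Ppargc1b differed by -0.37 (limma adjusted p = 0.00472), with ratios of 0.34 and -0.04 at 24 h and -0.09 and -0.35 at 96 h. None of the 82 subunit genes was among those that differed. With no replicate block and with the authors' log ratios 0 of 28088 probes passed for this contrast, so none of these calls held there.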

How the results depend on the processing

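The count of subunit genes changed by silencing at 24 h was 0 in all 10 alternatives. At 96 h it was 1, and 0 with a normexp offset of 16, with the authors' log ratios, with no replicate block and when any single array was left out (0 to 0). For the difference between the times it was 0 throughout. From 24 h to 96 h in control cells 20 genes passed, 11 with an offset of 16, 42 with the replicate block and 27 to 38 when single arrays were left out. In silenced cells 23 passed, 39 with the replicate block and 24 to 39 when single arrays were left out; those fits took the intraspot correlation of all 4 arrays. The replicate numbers share only the dye orientation, which the silencing fit carries as a term. The replicate differences at 24 h and 96 h correlated at 0.677 over probes. The main fit of the time changes held no replicate term, so the 2 times were not paired by replicate there. Over all probes, silencing calls numbered 113 at 24 h and 3629 at 96 h, but 0 and 150 with no replicate block, 0 and 0 with the authors' log ratios and 1 and 1410 with an offset of 16. The difference between the times had 0 calls over all probes with no replicate block and with the authors' log ratios. Where 0 probes passed, a count of 0 among the 82 genes was fixed in advance. With processed signals set to the 75th percentile the changes of many genes that did not pass turned sign in control cells. Among them were Cox7a2 (-0.16), Ndufa4 (-0.072), Atp5a1 (-0.15), Ndufv3 (-0.083) and Cox4i2 (0.55). In silenced cells Ndufa4 was among those that turned (-0.028). When single arrays were left out, values on both sides of 0 were found for 67 of the 82 subunit genes in silencing at 24 h, 47 at 96 h and 56 in the difference, with Cox6a1 the widest. Such ranges among other named values were those of the silencing ratio of Cox7a2l at 24 h (-0.33 to 0.065) and of Pnpla6 at 96 h (-0.11 to 0.12), the difference of Uqcrh (-0.40 to 0.012) and Cox7a1 (-0.0031 to 0.45), the time change of Cox6b1 (-0.10 to 0.061) and Cox4i1 (-0.077 to 0.15) in control cells and that of Cox7a2 in silenced cells (-0.11 to 0.015). Signal over background and 2 arrays per time limit all values.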
